A study of Mus musculus with 2 samples.

Results

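The MHC class I pathway was read in activated mouse CD4 T cells from 2 cultures, whose genotype labels are Gfi1 wild type and Gfi1 knockout. GFI1 is a transcriptional repressor with zinc fingers. The genes described are 34 names: class I heavy chains, their light chain, the immunoproteasome, the peptide transporter and loading complex, peptide trimming enzymes, related antigen-presenting molecules and the transcription factors of class I promoters. Every probe whose symbol in the platform annotation is one of these names was taken, whatever its value. Of the 34 names 32 had a probe, with 41 probes among the 55681 of each array. Of these, 31 genes passed the detection limit on at least 1 array through 39 probes, among 13411 named genes that did so. H2-Q1 had a probe that was detected on neither array (3.24 units under the wild-type label, 3.58 units under the knockout label). H2-T22 and H2-Q4 had no probe under those symbols.

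Naive CD4 T cells (CD44 low, CD62L high, CD25 negative) were isolated from spleens of C57BL/6 mice. Both cultures, 1 with the genotype label Gfi1 wild type and 1 with Gfi1 knock out, were stimulated for 2 days with immobilised anti-TCR-β, used at 3 µg/ml, and anti-CD28, used at 1 µg/ml. Both received IL-2 at 10 ng/ml, and antibodies at 5 µg/ml each blocked IL-4 and IFN-γ. The RNA of each culture was hybridised to 1 array in 1 colour (Cy3). The kind of Gfi1 allele, the age and sex of the mice and any pooling are not given in the sources used here. With 1 array per genotype there is no measure of the spread between cultures, and no test was made anywhere. All values below compare these 2 libraries. Differences are on the log2 scale, knockout label minus wild-type label, after each array was scaled to the 75th percentile of its probes (263 and 269 units). A probe counted as detected above 14.2 units under the wild-type label and above 14.6 units under the knockout label, the array medians.

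MHC class I molecules show peptides from inside the cell to CD8 T cells. Each consists of a polymorphic heavy chain and the invariant light chain β2-microglobulin. Proteasomes cut proteins into peptides, TAP carries the peptides into the endoplasmic reticulum, and tapasin, calreticulin and ERp57 help load them onto the heavy chain. Interferons raise the transcription of most of these genes through IRF and STAT factors, while NLRC5 and the RFX complex act on the promoters of the heavy chains and of β2-microglobulin.

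Several readings of these libraries bear on every value. The single Gfi1 probe read 4260 units under the wild-type label and 18100 units under the knockout label, which goes against the labels if the probe lies in the deleted part and checks nothing if it lies outside. The libraries are therefore named by their labels. The female-specific Xist read 447 and 3.86 units and the Y-linked Eif2s3y 2.91 and 3870 units, so genotype label and sex cannot be told apart. The CD4 T cell markers were read in both libraries: Cd4 read 2319 and 2146 units and Cd3e 20900 and 15900 units. In bulk RNA, fewer cells of a type and less RNA per cell cannot be told apart.

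Class I genes stood mostly higher in the library labelled knockout, by modest amounts. Of the 31 detected genes 27 differed by more than 0 on the log2 scale, and 41.6% of all detected genes did. At least 1.5-fold higher were 11, or 35.5%, against 7.67% of all genes. At least 2-fold higher were 5, or 16.1%, against 3.62% of all genes. At least 1.5-fold lower were 0 members (4.25% of all genes), and at least 2-fold lower 0 (1.52%). The median difference was 0.45 over the detected members and -0.05 over all genes. Brighter genes gave a like picture: of 6831 genes with at least 500 units in one of the libraries, the 24 members had a median of 0.47 and all of them one of -0.06. The 5 past 2-fold were H2-Q10, H2-T24, Tap1, Psmb9 and Nlrc5, and the 4 below 0 were Calr, Erap1, Canx and Pdia3.

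**Figure D1:**
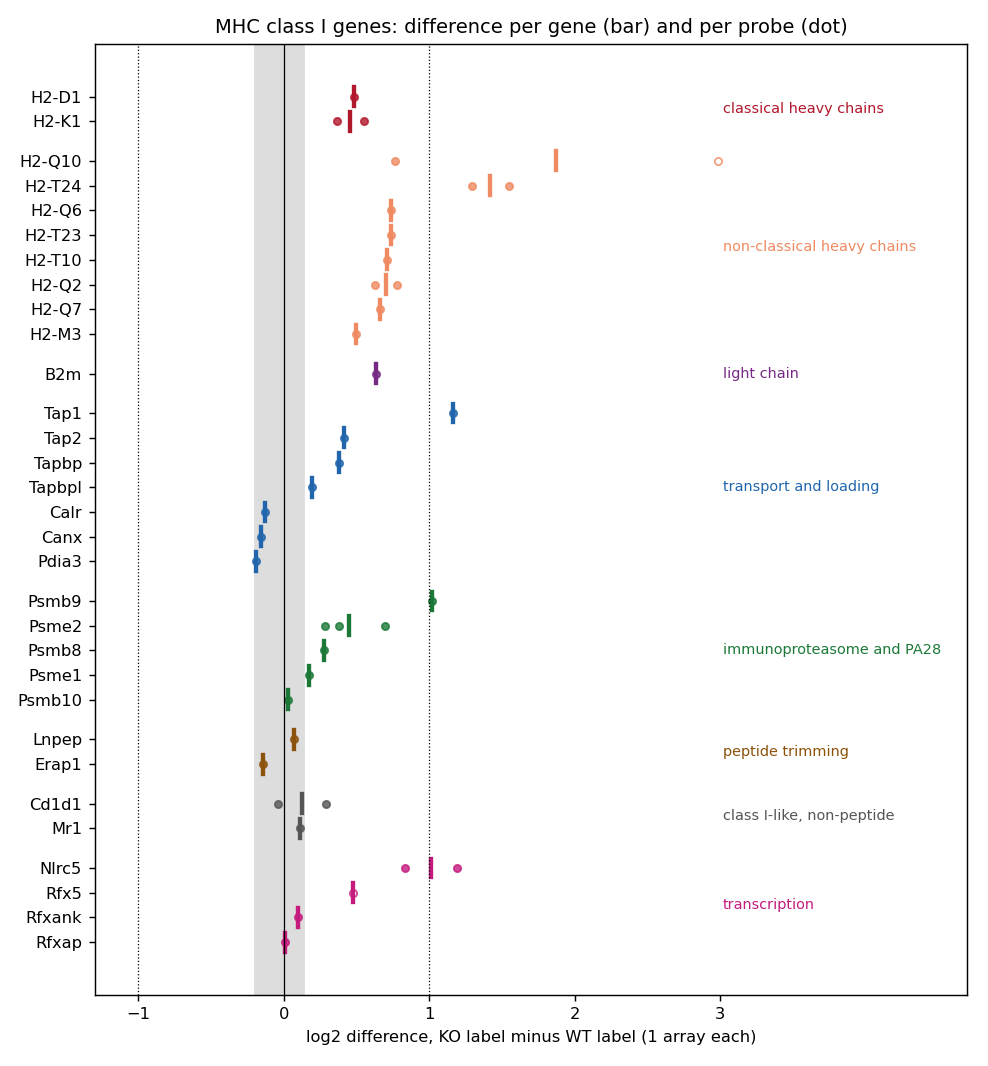
The horizontal axis is the log2 difference, knockout label minus wild-type label, for the 31 detected class I genes grouped by role. Bars are genes, dots are probes, open dots were below the detection limit under the wild-type label, the grey band spans the middle 50% of all detected genes (-0.20 to 0.14) and dotted lines mark 2-fold; all 10 heavy chains lie right of the band while Calr, Canx, Pdia3 and Erap1 lie left of 0.

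The classical heavy chains H2-K1 and H2-D1, which carry most peptides at the cell surface, both read higher under the knockout label, by less than 1.5-fold. One H2-K1 probe was printed on 10 spots. These spots read 58300 to 64000 units (median 61000) under the wild-type label and 75700 to 83500 units (median 80700) under the knockout label. The spots of the libraries do not overlap, and the difference was 0.36 ± 0.04 (SD over 10 spots of 1 array pair). The other H2-K1 probe read 24800 and 37200 units, a difference of 0.55. Over both probes H2-K1 stood at 0.46 ± 0.13 (SD, 2 probes), or 1.37-fold. H2-D1 read 28800 and 41200 units on its single probe, a difference of 0.48 (1.40-fold). The SDs cover variation within the arrays alone.

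The non-classical heavy chains, which have fewer alleles and more specialised roles, stood higher than the classical ones in their median, 0.72 over 8 genes against 0.47 over 2. H2-T23, which encodes Qa-1, the ligand of the NK receptor chains CD94 and NKG2, read 33200 and 56500 units (1.66-fold). H2-Q6 read 12100 and 20600 units (1.66-fold) and H2-Q7, which encodes a Qa-2 antigen, 21300 and 34500 units (1.58-fold). H2-Q2 was read by 2 probes, at 30400 and 48000 units and at 4960 and 8710 units, which gave 0.70 ± 0.11 (SD, 2 probes). H2-T10, whose product is a ligand of some γδ T cell receptors, read 958 and 1600 units (1.63-fold). H2-M3, which presents N-formylated peptides, had the smallest difference of the group, 736 against 1060 units (1.41-fold). Per gene, all of these differences except that of H2-M3 lay between 0.66 and 0.74, a narrow range over genes of very different signal. The 2 H2-Q2 probes lay outside it, at 0.63 and 0.78.

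Both members of the group past 2-fold were read in part by dim probes. H2-T24 read 16.2 and 48.4 units on one probe and 95.8 and 240.0 units on the other, differences of 1.55 and 1.29, with a mean of 1.42 ± 0.18 (SD, 2 probes; 2.67-fold). Its first probe lay just above the detection limit under the wild-type label. H2-Q10, which encodes a secreted class I protein, was read very differently by its probes. One probe read 2020 and 3510 units, a difference of 0.76. The other read 13.1 units under the wild-type label, below the detection limit, and 115 units under the knockout label, at least 7.92-fold higher. The mean of 1.87 ± 1.57 (SD, 2 probes) thus rests on a bound, and the probe detected in both libraries gave 1.70-fold, beside 1.63-fold for H2-Q2, 1.66-fold for H2-Q6 and 1.58-fold for H2-Q7.

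Some heavy-chain genes are close copies of each other, and RNA of one can bind the probe of another. The probe sequences were not used here, so how far each probe is specific to its gene was not tested. Of 16 heavy-chain symbols outside the 34 names 7 were detected, 5 of them above 0, with a median of 0.56. H2-Q8 was 2.55-fold higher (3030 against 7900 units), and H2-M10.1 at least 2.41-fold lower (34.4 against 3.56 units). Most of the undetected symbols belonged to the M region.

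The promoters of 10 of the 13 heavy chains were in the table used. For each, the 60 bases most like a stretch of the H2-K1 promoter were found, and the 7 stretches below are shown because they hold the interferon-response element in its class I form. H2-Q4 is among them although no probe carries its symbol. They come from RefSeq (GRCm38.p6), 5′ to 3′ on the strand of each gene. Capitals mark a κB element (the first capitals of the H2-K1 line), that interferon-response element (GAAGTGAAA, seen here as TTTCACTTC) and the CCAAT box (in the H2-M3 line, seen as ATTGG), each searched on both strands.
H2-K1: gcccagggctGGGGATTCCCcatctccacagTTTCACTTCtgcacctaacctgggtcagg
H2-D1: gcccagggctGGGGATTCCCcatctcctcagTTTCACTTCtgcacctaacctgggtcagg
H2-Q6: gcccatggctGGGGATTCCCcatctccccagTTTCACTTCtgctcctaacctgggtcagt
H2-Q7: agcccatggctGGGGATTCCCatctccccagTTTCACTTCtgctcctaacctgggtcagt
H2-Q10: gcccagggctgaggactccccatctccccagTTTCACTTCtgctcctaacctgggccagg
H2-Q4: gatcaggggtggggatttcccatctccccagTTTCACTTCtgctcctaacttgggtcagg
H2-M3: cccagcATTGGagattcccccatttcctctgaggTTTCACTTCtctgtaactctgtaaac
H2-K1 lies at chr17:34000409-34000468 (minus strand), H2-D1 at chr17:35262913-35262972, H2-Q6 at chr17:35424667-35424726, H2-Q7 at chr17:35439011-35439070, H2-Q10 at chr17:35469903-35469962, H2-Q4 at chr17:35379433-35379492 and H2-M3 at chr17:37270099-37270158 (plus strand). Counted without gaps, 59 of the 60 bases of H2-D1 equal those of H2-K1, 56 of H2-Q6, 55 of H2-Q10, 53 of H2-Q4, 46 of H2-Q7 and 26 of H2-M3. The κB letters stood in H2-K1, H2-D1, H2-Q6 and H2-Q7 and not in the stretches of H2-Q10, H2-Q4 and H2-M3. The remaining stretches, of H2-T23, H2-T22 and H2-Q2, shared 23, 26 and 27 bases with H2-K1 and held neither element in these forms. That of H2-T22 held TTTCACTTTC, a match of the general interferon element described below, and a CCAAT box. The carriers of the κB letters stood at 0.46, 0.48, 0.74 and 0.66, and among those without them H2-Q10 stood at 1.87, H2-T23 at 0.73, H2-Q2 at 0.70 and H2-M3 at 0.49. H2-Q4, also without them, stood at 0.28 if read by the probe listed as H2-Gs10, whose accession RefSeq assigns to it.

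A promoter window was found for 26 of the 34 names, and motifs were searched in the 250 bases before each start. The κB letters were searched only in the exact form printed in the H2-K1 line, itself a member. They stood in 4 of 26 members and in 27 of 27025 genes (0.0999%). Other forms of the κB element were not searched. These shares therefore cannot show whether κB elements in general are more frequent among the members. The class I interferon element, a form chosen after the sequences were seen, stood in 7 of 26 members and in 129 genes (0.477%). Since most of these heavy chains are close copies of each other in the stretches above, their matches are not independent. The general interferon element, GAAA and GAAA with any 2 bases between them, did not overlap these matches and stood in 3 of 26 (B2m, H2-T22 and H2-T23) and in 3.46% of genes. The STAT element TTCNNNGAA stood in 2 of 26 (H2-M3 and Psmb8) and in 8.13% of genes. CCAAT stood in 18 of 26 and in 37.5% of genes, and TGACG, a part of the X box region of MHC promoters, in 12 of 26 and in 19.8%. AAATCAC, one form of the GFI1 binding site, stood in 0 of 26 and in 3.13% of genes. Shorter forms of that site were not searched, and at so low a share 0 of 26 says little. A match is a description of letters and no measure of binding.

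The light chain stood higher by about as much as the non-classical heavy chains. The B2m probe read 42600 and 40400 units on its 2 spots under the wild-type label and 66100 and 65700 units under the knockout label. The spots do not overlap, and the difference was 0.64 ± 0.05 (SD, 2 spots; 1.55-fold). The 250 bases before its start (chr2:122147437-122147686, plus strand) hold the general interferon element and a CCAAT box in reverse, in capitals. H2-T23 (chr17:36032702-36032951, minus strand) is shown beside it because it is the other detected member with that element, read on the opposite strand. Their differences were 0.64 and 0.73.
B2m: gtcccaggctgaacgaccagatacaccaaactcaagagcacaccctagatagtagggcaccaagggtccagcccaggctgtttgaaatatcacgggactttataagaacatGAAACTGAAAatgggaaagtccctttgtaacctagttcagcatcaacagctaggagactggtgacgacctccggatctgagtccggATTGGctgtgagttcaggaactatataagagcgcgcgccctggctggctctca
H2-T23: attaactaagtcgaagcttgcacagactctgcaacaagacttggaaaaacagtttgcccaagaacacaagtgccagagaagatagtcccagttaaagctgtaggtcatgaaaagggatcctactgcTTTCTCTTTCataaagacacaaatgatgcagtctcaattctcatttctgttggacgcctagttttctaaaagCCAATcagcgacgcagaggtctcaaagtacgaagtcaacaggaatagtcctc

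**Figure D2:**
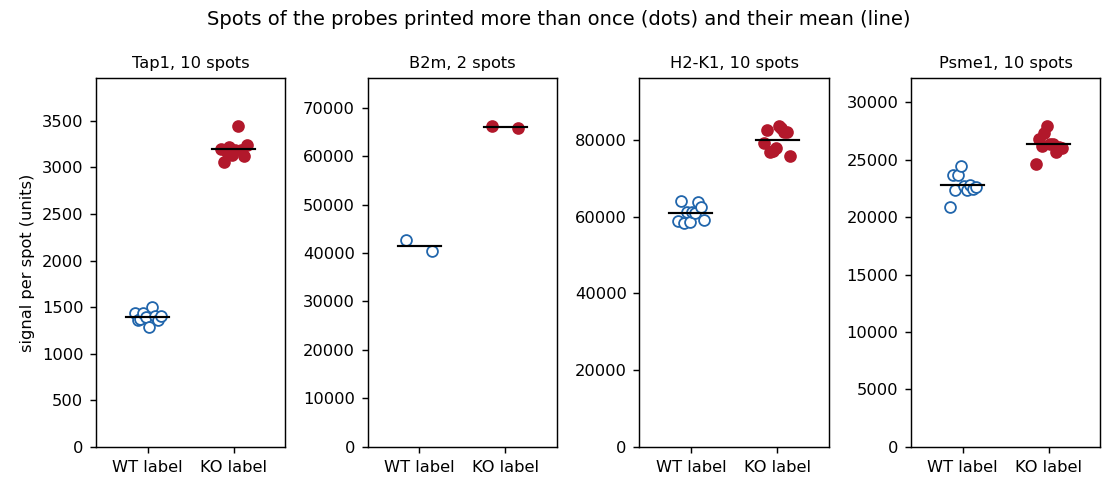
The vertical axes, from 0, give the signal per spot in units for the 4 class I probes printed on more than 1 spot, open dots for the wild-type label and filled dots for the knockout label, with lines at the means. The signals are as read, before scaling, and the spots of the libraries do not overlap, though those of Psme1 do once scaled; Tap1 has the widest gap as a ratio (medians of 1400 and 3190 units) and Psme1 the narrowest (22650 and 26300 units).

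Peptide supply was uneven among its subunits. Psmb9, the immunoproteasome subunit LMP2, read 9710 units under the wild-type label and 20100 units under the knockout label (log2 1.02, 2.02-fold), just past the 2-fold limit. Psmb8, the subunit LMP7, read 22600 and 28000 units (0.28). Psmb10, the subunit MECL-1, read 24200 and 25200 units (0.03). These replace the constitutive subunits Psmb6, Psmb5 and Psmb7, which stood at -0.14, -0.13 ± 0.01 (SD, 2 probes) and 0.00 in the same order. The log2 difference of the immunoproteasome subunit thus exceeded that of its constitutive counterpart by 1.16 for Psmb9, 0.41 for Psmb8 and 0.03 for Psmb10. These values compare differences between the libraries and not the levels of the subunits.

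The subunits of PA28, the activator cap that opens the proteasome for short peptides, stood slightly higher. Psme1 was printed on 10 spots, which read 20900 to 24500 units (median 22650) under the wild-type label and 24600 to 27900 units (median 26300) under the knockout label. As read, these ranges are narrowly apart; once scaled, the lowest spot of the knockout label (24051 units) lies below the highest of the wild-type label, so they overlap. The difference was 0.17 ± 0.02 (SD, 10 spots). Psme2 was read by 3 probes at differences of 0.28, 0.38 and 0.69, the last on the dimmest (116 and 192 units), with a mean of 0.45 ± 0.22 (SD, 3 probes). Among 7 constitutive subunits and other proteasome regulators 0 passed 1.5-fold in either direction. The lowest was Psme3, the nuclear PA28γ, at -0.29, and the highest the proteasome inhibitor Psmf1 at 0.13. Of 8 cytosolic peptidases that trim or destroy peptides 1 stood above 0, as did 41.6% of all genes, and 7 below. Their median was -0.12, against -0.05 over all genes. Of the 8, 0 passed 1.5-fold, from Thop1 at -0.26 to Lap3, leucine aminopeptidase, at 0.05.

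Of the 7 members of peptide transport and loading, 4 stood above 0 and 3 below. Tap1, a chain of the transporter, had the largest difference of the 4 member probes with repeat spots. Its 10 spots read 1290 to 1500 units (median 1400) under the wild-type label and 3060 to 3440 units (median 3190) under the knockout label, and every spot of the second library exceeded every spot of the first. The difference was 1.16 ± 0.04 (SD, 10 spots), or 2.24-fold. Its partner chain Tap2 read 15300 and 20900 units (0.42, 1.34-fold). Tapbp, tapasin, which holds the heavy chain at the transporter, read 4960 and 6600 units (0.38), and its relative Tapbpl, the peptide editor TAPBPR, 2010 and 2350 units (0.19).

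The chaperones that also serve other glycoproteins stood below 0. Calr, calreticulin, read 10600 and 9890 units (-0.13), Canx, calnexin, 14200 and 13000 units (-0.16), and Pdia3, the disulfide isomerase ERp57, 5210 and 4660 units (-0.19, the lowest of the 31). Each lies within the middle 50% of all genes. Of 12 further genes of folding and export in the endoplasmic reticulum 0 passed 1.5-fold, with a median of -0.03 and a range from -0.16 (Ganab, glucosidase II) to 0.19 (Sel1l, of the degradation machinery). The trimming aminopeptidase Erap1 read 166 and 154 units (-0.14), and Lnpep, the endosomal relative IRAP, 921 and 990 units (0.07).

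Tap1 and Psmb9 are neighbours that point away from each other, and the bases between their starts serve both as promoter. In the RefSeq order of GRCm38.p6 they stand next to Psmb8 and Tap2, with class II genes on either side. The 225 bases between the starts (chr17:34187331-34187555, shown on the plus strand, toward Tap1) are printed because their genes had differences of 1.16 and 1.02, against 0.28 for Psmb8 and 0.42 for Tap2 beside them. The capitals mark a CCAAT box, and neither interferon element was found there in the forms searched. The promoter of Calr (chr8:84846932-84847181, minus strand), shown as one whose gene stood below 0, holds a CCAAT box in each direction.
Tap1-Psmb9: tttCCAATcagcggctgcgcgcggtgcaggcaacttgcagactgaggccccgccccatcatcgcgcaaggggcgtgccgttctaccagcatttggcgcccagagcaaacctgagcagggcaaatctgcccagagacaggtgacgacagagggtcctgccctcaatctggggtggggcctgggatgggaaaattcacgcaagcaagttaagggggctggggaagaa
Calr: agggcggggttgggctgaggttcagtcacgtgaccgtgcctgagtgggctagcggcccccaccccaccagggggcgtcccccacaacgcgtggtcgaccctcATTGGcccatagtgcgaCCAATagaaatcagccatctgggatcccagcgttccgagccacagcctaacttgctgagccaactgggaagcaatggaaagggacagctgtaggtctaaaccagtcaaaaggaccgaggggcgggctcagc

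**Figure D3:**
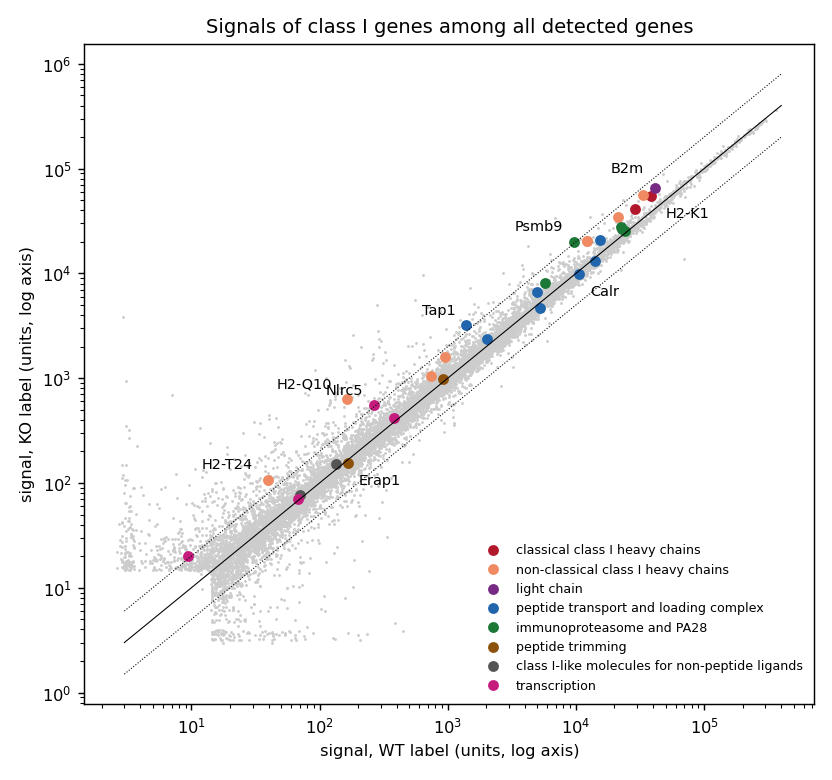
Both axes are logarithmic and give the signal in units, wild-type label across and knockout label upward, before any floor; grey points are the 13411 detected genes, coloured points the 31 class I genes by role, the solid line equality and the dotted lines 2-fold. Tap1, Psmb9 and Nlrc5 lie at or just past the upper dotted line on signals well above the detection limit, and H2-Q10 and H2-T24 past it on dimmer ones.

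Of the 4 members that act on class I promoters, Nlrc5 alone passed 2-fold as measured here, with Rfx5 known only as a bound. Nlrc5, the class I transactivator, read 1900 and 4440 units on one probe (1.19) and 37.5 and 68.3 units on the other (0.83), with a mean of 1.01 ± 0.25 (SD, 2 probes; 2.02-fold). Only the brighter probe passed 2-fold. Of the RFX complex, Rfxank read 384 and 421 units (0.10) and Rfxap 68.1 and 70.0 units (0.01). Rfx5 was dim: one probe read 9.43 units, below the detection limit, and 20.2 units, at least 1.39-fold higher, and the other read 8.55 and 12.2 units, below the limit in both libraries.

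Among 12 detected factors of a list of others that act at these promoters, 1 was at least 2-fold and 3 at least 1.5-fold higher, and 0 were 1.5-fold lower. The one past 2-fold was Stat2, which carries type I interferon signals, at 1240 and 3570 units (2.81-fold). The others past 1.5-fold were its partner Irf9 (0.93) and Irf1 (0.87 ± 0.60, SD over 2 probes), while Irf2 stood at 0.16 and Creb1 was the lowest at -0.27 ± 0.40 (SD, 2 probes). Ciita, the class II counterpart of Nlrc5, read 4.71 and 11.7 units and was detected in neither library. The list's median was 0.03.

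The class I-like molecules that present non-peptide ligands differed little. Cd1d1, which shows lipids to NKT cells, read 321 and 319 units on one probe (-0.04) and 56.8 and 71.2 units on the other (0.29), a mean of 0.13 ± 0.24 (SD, 2 probes) that is smaller than the spread between them. Mr1, which shows vitamin B metabolites to MAIT cells, read 69.8 and 77.2 units (0.11). Of 11 other genes of the class I fold with a probe 4 were detected. Procr, the endothelial protein C receptor, was 5.76-fold higher on a dim probe (24.6 against 145 units), and Hfe, the iron regulator, was the lowest, at 18.3 and 11.7 units, the second below the detection limit.

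**Figure D4:**
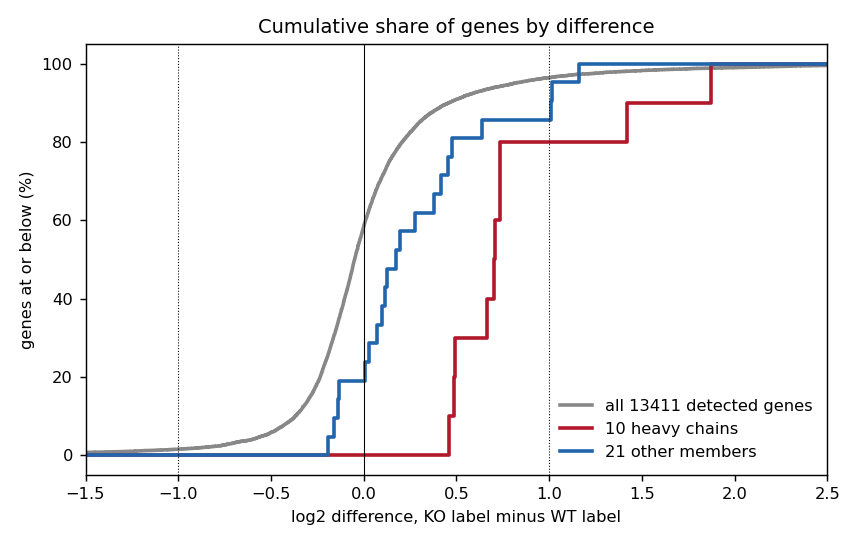
The vertical axis is the cumulative percentage of genes at or below each log2 difference, knockout label minus wild-type label, for all 13411 detected genes, the 10 detected heavy chains and the 21 other detected members. The heavy-chain curve starts at 0.46 and the curve of the other members at -0.19, with medians of 0.71 and 0.17 against -0.05 for all genes.

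Most other genes of the MHC locus lay near 0. Between H2-K1 and H2-M3 in the RefSeq gene order, the 10 detected heavy chains of the list had a median of 0.71, and Tap1, Tap2, Psmb8 and Psmb9 one of 0.72. The 94 detected genes of the same interval with neither a class I nor a class II symbol had a median of -0.01, with 43 above 0, 8 at least 1.5-fold and 1 at least 2-fold higher. The 8 include Gm11127 (0.84) and Gm8909 (0.93), to which RefSeq gives class I names as synonyms. The gene past 2-fold was Lta, the cytokine lymphotoxin alpha, which was 2.82-fold higher. The 8 detected class II genes all stood above 0 with a median of 1.28, from H2-Ob at 0.48 to H2-Aa at 2.44, the latter at 12.5 units, below the detection limit, and 78.6 units.

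**Figure D5:**
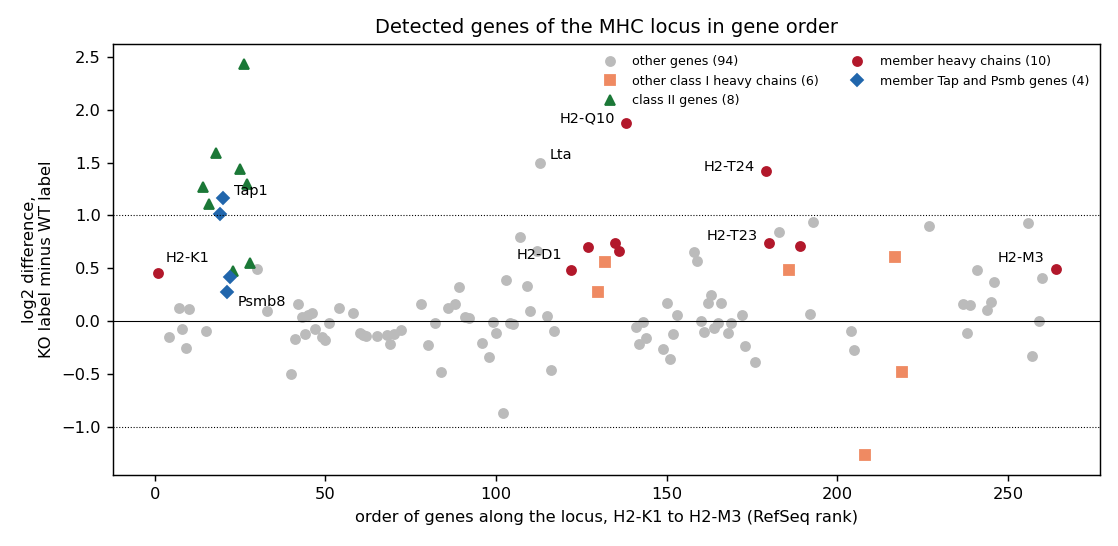
The horizontal axis is the rank of a gene along the MHC locus from H2-K1 to H2-M3, with no scale of distance, and the vertical axis its log2 difference, knockout label minus wild-type label. The 10 heavy chains of the list and the 8 class II genes lie above 0 along the locus, between 94 genes of other symbols with a median of -0.01. Of 6 other heavy chains, H2-M9 and H2-M10.1 lie below 0, the latter lowest at -1.27. These 6 include the H2-Gs10 probe, placed at H2-Q4, and leave out H2-Q8 and H2-T9, which are not shown.

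Most CD8 T and NK cell markers stood at least 1.5-fold higher under the knockout label, while B cell and myeloid markers were mixed. B cells and other antigen-presenting cells also express the class I pathway, as the CD4 T cells read here do. Of CD8 T and NK cell markers 10 of 10 were detected, with a summed signal of 299 and 1029 units. All stood above 0, as did 41.6% of all genes, with a median of 1.11. At least 1.5-fold higher were 8 and at least 2-fold higher 5, against 7.67% and 3.62% of all genes. The largest difference was that of Klrc1 (19.0 and 189 units). Below the detection limit under the wild-type label were 5, with Cd8a, Ncr1 and Klrk1 among them. Genes detected only under the knockout label stand above 0 by construction, so these 5 could not have stood below it. Of 7 B cell markers with a probe 6 were detected and 5 stood above 0, of which 2, Blnk and Ms4a1, were at least 1.5-fold higher. The summed signal of the 6 was 524 and 1117 units. Blnk read 30.6 and 386 units and Ms4a1 18.9 and 221 units, Cd79b 281 and 256 units, and Pax5 was detected in neither library. Of 8 myeloid and dendritic markers 6 were detected, 4 above 0 and 1, Mpeg1, at least 1.5-fold higher, with a median of 0.08. Their summed signal was 336 and 673 units, of which Mpeg1 made 11.7 and 335 units. Csf1r stood at 0.01, Itgam at -0.07 and Adgre1, below the detection limit under the knockout label, at -0.14. Lyz2 and Itgax were detected in neither library. Of 7 detected CD4 T cell markers 1, Cd2, stood above 0 (0.51), as did 41.6% of all genes. The other 6 stood below 0, and the median of the 7 was -0.23 against -0.05 over all genes. The part of such cells in the class I differences was not tested.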

How the data were processed

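Gene expression was measured on 2 one-colour Agilent arrays, 1 per genotype label. Signals were extracted with Agilent Feature Extraction, version 11.5.1.1, per the submitters' processing notes, and 100 ng of total RNA was labelled per array, per the labels' protocols. The deposited files hold the authors' linear intensity per spot under a column headed raw; whether background was subtracted could not be settled. A second table by the authors holds an intensity that is close to the same signal times 2.27 (wild-type label) and 2.26 (knockout label), with column medians of 34.4 and 34.8; how these constants were chosen stays unknown, and it was used as an alternative.

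Spots of the same probe were averaged as log2 values, and arrays were aligned at their 75th percentile of probes. The array median served as detection limit and floor, a convention, since the files used hold no flags. A probe under the limit on both arrays was dropped, and a gene is the mean over its remaining probes. Groups follow the genotype labels. With 1 array each, genes were counted by size (at least 1.5-fold or 2-fold, with 3-fold as an alternative) and no test was run. For 399 probes with 10 spots each, the difference had a median SD of 0.35 at 15 to 50 units, 0.11 at 50 to 500 and 0.05 at 500 to 5000. The number of arrays limits the precision.

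Member probes were taken by platform symbol. Other symbols were updated through a RefSeq table of GRCm38.p6, by accession for 29050 of 31465 named spots; 27840 spots have no name. The members and gene lists were chosen with earlier results of these data known. Every member is named; of the pathway lists, genes past 2-fold, the highest and the lowest, and Psmb5, Psmb6 and Psmb7. The markers named, Irf1, Irf2, Irf9, Ciita, Lta, Gm11127, Gm8909, H2-M9 and the class II genes were added with their values in view. Alternatives covered scaling, floor, probe choice, probe summary, an offset of 16 units, spots with feature numbers up to 50000 only, gene names and the authors' table. The steps were tested on simulated data. Computation used Python 3.11.15, with pandas 2.3.3, numpy 2.4.6, matplotlib 3.10.9 and statsmodels 0.14.6.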

Additional observations from a re-analysis of the deposited data

Results flagged for a closer look

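Class I signal was also present under symbols that enter neither the 34 names nor the gene lists, and such probes are given because they lie outside the main measurement. The probe listed as H2-Gs10, whose accession RefSeq assigns to H2-Q4, read 26200 and 32500 units, a log2 difference of 0.28. The pseudogene H2-K2 stood at 0.49 over 2 probes (geometric mean 18000 and 25936 units), close to H2-K1 at 0.46.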

How the results depend on the processing

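No paired analysis was possible because each genotype label has 1 array. Over 14 alternatives of scaling, values, floor, probes, summary, offset, spots and names, 29 of the 31 detected members kept their sign wherever they could be read. Cd1d1 turned to -0.04 at its lowest and Rfxap to 0.00. The 5 members past 2-fold became 3 when the floor was raised to the 75th percentile, where H2-T24 was not detected and H2-Q10 stood at 0.76. They were 11 at 1.5-fold and 1 at 3-fold. H2-Q10 was also at 0.76 with probes detected on both arrays and with the brightest probe. Nlrc5 fell under 2-fold with an offset of 16 units (0.91). Without spots of feature numbers above 50000 Psmb9, Tap2, Pdia3, Lnpep and Rfx5 had no detected probe left. Members at least 2-fold lower stayed at 0 in each of these settings, and also at 1.5-fold and 3-fold. Of all genes, the counts at least 2-fold higher and lower, 485 and 204, were 980 and 634 when the floor was lowered to the 25th percentile, 136 and 20 when it was raised, and 1004 and 638 without filter or floor. They were 1029 and 570 at 1.5-fold and 215 and 87 at 3-fold. The count of lower genes alone was 125 with probes detected on both arrays, 117 with the offset and 105 without the late spots. The floor, filter and fold settings move these counts by their construction; the cause was not tested for the others. Rfx5, at 0.48, moved to 0.77 with the floor at the 25th percentile and without filter or floor, and to 0.23 with the offset. Dim signals limit H2-Q10, H2-T24 and Rfx5 most.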
